A study of Mus musculus with 6 samples.

Results

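The clustered histone genes of the mouse were followed in immortalized keratinocytes that differ in the α3 integrin subunit. They were taken as all rows of the count table whose GENCODE M21 symbol begins with Hist1h, Hist2h, Hist3h or Hist4h and whose biotype is protein_coding, which gave 65 of the 49315 genes in the table. A further 2 genes that meet the name and biotype rule, Hist1h2bm and Hist1h2bh, were not analysed here. By class, 6 members encode the linker histone H1, 18 encode H2A, 16 encode H2B, 12 encode H3 and 13 encode H4. By cluster, 52 lie in Hist1 on chromosome 13, 10 in Hist2 on chromosome 3, 2 in Hist3 on chromosome 11 and 1, Hist4h4, on chromosome 6.

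The 3A group was the line MK-546-ha3A, in which human α3 was put back into cells without α3. The Control group was MK-546 itself (MK-/-), which has no α3, so both lines lack the mouse subunit and only 3A carries the human one. Each group had 3 libraries of untreated cells, called here 3A 1 to 3 and Control 1 to 3, grown on collagen at 33 °C and 8% CO2 to about 50 to 80% confluence. Each group was a single line, so α3 and the descent of the line cannot be told apart. The labels do not say that the libraries came from separate cultures, so the spread behind each p-value may be technical. All values are read counts per gene from bulk RNA, in which a change in the share of cells in one state and a change in RNA per cell cannot be told apart.

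Histones package DNA: pairs of H2A, H2B, H3 and H4 form the nucleosome core and H1 binds the linker. Most genes of the clusters are transcribed in S phase, and their mRNAs end in a conserved stem-loop instead of a poly(A) tail; the stem-loop is bound by SLBP, and the U7 small nuclear ribonucleoprotein directs the cut behind it. Some of these genes can also use a poly(A) signal further downstream, which gives a longer, polyadenylated mRNA. The replacement and variant histone genes lie outside the clusters, and many of them make polyadenylated mRNAs throughout the cell cycle.

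The stem-loop was looked for in the annotated transcripts, on the transcript's own strand and behind the longest reading frame, as GGNNCT on the 5′ arm and AGNNCC on the 3′ arm of a stem of 6 pairs around a loop of 4 bases. It was present in 44 of the 65 members, in 8 spellings, and in 106 of 21834 other protein-coding genes (0.485%). Some of the 21 members with no match have short annotated transcripts, such as Hist1h2bl with 381 bases and Hist1h2ai with 393. A stem-loop beyond an annotated end would be missed, so no match does not mean that the gene lacks one. The commonest spelling, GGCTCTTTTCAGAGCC, was shared by 24 members from 3 of the clusters. The next was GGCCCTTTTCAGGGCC, found in 7 members, all of them H4 genes. Of the 44 members, 22 had an annotated transcript that runs on for more than 100 bases behind the stem-loop and 22 had none that does. Of the 65 members, 17 had a transcript with AATAAA or ATTAAA in its last 40 bases. The stem-loops of 5 of the best measured members are given 5′ to 3′ for the processing signal that the transcripts carry, with the stem-loop in capitals and 5 flanking bases on each side (GENCODE M21 transcripts, GRCm38).
Hist1h1c: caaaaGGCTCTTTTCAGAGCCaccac
Hist1h3c: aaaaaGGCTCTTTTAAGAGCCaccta
Hist3h2a: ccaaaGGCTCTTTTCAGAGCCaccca
Hist1h4i: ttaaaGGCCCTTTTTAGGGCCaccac
Hist1h2ao: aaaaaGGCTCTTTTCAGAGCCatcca

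These stem-loops stand in very different places of the annotated transcript. In Hist1h1c 840 bases follow the stem-loop and the last 40 bases hold AATAAA. In Hist3h2a 1643 bases follow and AATAAA is also present, and in Hist1h4i 330 bases follow and ATTAAA is present. In Hist1h3c 74 bases follow and in Hist1h2ao 31, with neither signal in the last 40 bases. The annotated transcript of Hist1h2bc has 2 exons that together measure 1156 bases within a span of 8710 bases, and no match to the stem-loop; this says only that the letters are not in this transcript. Counts per gene do not show where a transcript ended, so whether the reads came from polyadenylated forms was not tested.

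The clustered histone genes were detected at trace levels. Together the 65 members held 886, 824 and 815 counts in 3A 1, 2 and 3, and 949, 1713 and 1272 counts in Control 1, 2 and 3, out of 25634204 to 36245240 counts per library. That is 0.00227% to 0.00259% of a library in 3A and 0.0032% to 0.00554% in Control. At least 1 count was seen for 56 members, and 26 were detected by the rule of at least 10 counts in each of at least 3 libraries. At least 10 counts in all 6 libraries were seen for 11 members.

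The 9 members at 0 counts in all libraries were Hist1h1t, Hist1h2aa, Hist1h2ba, Hist1h2br, Hist2h2aa1, Hist2h2aa2, Hist2h2bb, Hist2h3b and Hist2h3c1. A count of 0 allows up to 3 counts over a group's libraries, a level of 0.0277 CPM (counts scaled to library size) in 3A and 0.0356 CPM in Control, for counting error only. Hist1h1t, Hist1h2aa and Hist1h2ba encode the testis forms of H1, H2A and H2B. For 5 of the 9, every stretch of 50 bases in their transcripts also occurs on either strand of another gene's transcript, overlapping genes included. The handling of reads that map to several genes is not stated in the labels, and whether reads of these genes were left unplaced was not tested.

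Sequence shared with other genes limits many of the members. Both strands were searched, so a gene that overlaps a member counts here as well as a near-identical copy. The median member shared 55.0% of its stretches of 50 bases with another gene, and 34 members shared more than 50%, while 8, Hist1h1c among them, shared less than 10%. Exons overlapped those of another gene on the opposite strand in 21 members and on the same strand in 7. By annotation, 11 of the 22 members with more than 100 bases behind the stem-loop were detected, and 11 of the other 22 with a stem-loop. Of the 21 with no match in their annotated transcripts, 4 were detected. Hist4h4, whose transcript runs 2445 bases past its stem-loop, had between 0 and 1 count per library.

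**Figure D1:**
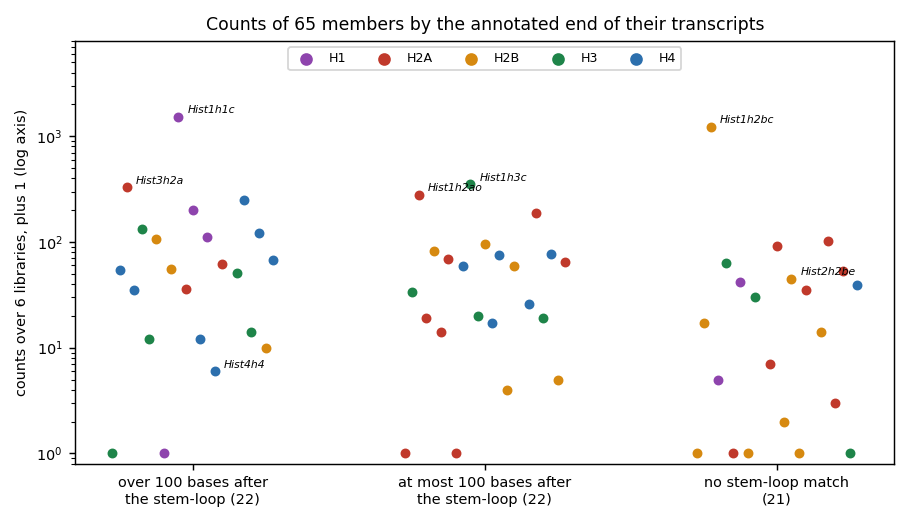
Counts of each of the 65 members summed over the 6 libraries, plus 1, on a log axis, grouped by the annotated end of the transcript and coloured by histone class. Points at 1 are the 9 members with no count; Hist1h1c and Hist1h2bc stand above all others, in different groups.

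By cluster, 24 of 52 Hist1 members were detected, 1 of 10 Hist2 members (Hist2h4) and 1 of 2 Hist3 members (Hist3h2a). By class these were 3 of 6 H1 genes, 8 of 18 H2A genes, 5 of 16 H2B genes, 3 of 12 H3 genes and 7 of 13 H4 genes. For the comparison of 3A with Control, 26 members passed edgeR's low-count filter: the same genes with Hist1h2an in place of Hist2h4. Their counts over all libraries ran between 52 and 1522. Of the 26, 10 passed the filter's level in every library, 9 passed it in more 3A than Control libraries and 6 in more Control than 3A libraries. The other 30 members with counts had 1 to 54 in all and were not tested.

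Hist1h1c, which encodes the linker histone H1.2, was lower in 3A. It lies on the plus strand at chr13:23738808-23740367 in a single exon (GRCm38). It had 142, 141 and 132 counts in 3A 1, 2 and 3, against 404, 448 and 255 counts in Control 1, 2 and 3. Scaled to library size its level was 4.07, 3.76 and 3.68 CPM in 3A and 12.8, 15.3 and 10.8 CPM in Control. The 3A libraries lay close together, and each was far below the lowest Control library. The means were 3.83 ± 0.208 CPM in 3A and 13.0 ± 2.25 CPM in Control (SD, n = 3 each), a change of -1.76 on the log2 scale (SE 0.20, adjusted p = 0.00199 by edgeR). The log2 fold change lay between -1.87 and -1.63 over the 14 other settings and left-out libraries, with adjusted p between 7.26e-14 and 0.0461.

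Hist1h2bc, an H2B gene, was also lower in 3A. Its 2 exons lie on the plus strand within chr13:23684199-23692908. It had 97, 71 and 81 counts in 3A 1, 2 and 3, against 186, 417 and 368 counts in Control 1, 2 and 3. The levels were 2.78, 1.89 and 2.26 CPM in 3A and 5.90, 14.3 and 15.6 CPM in Control. The groups did not overlap, but Control 1 lay nearer to the 3A libraries than to the other 2 Control libraries. The means were 2.31 ± 0.446 CPM in 3A and 11.9 ± 5.27 CPM in Control (SD, n = 3 each), a change of -2.37 on the log2 scale (SE 0.39, adjusted p = 0.00922 by edgeR). The edgeR adjusted p was 0.0541 without 3A 2 and 0.0583 without 3A 3, so the call was lost, and without Control 1 the log2 fold change was -2.68 (adjusted p = 0.00013).

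Hist1h1c and Hist1h2bc were the only members called by edgeR with all 6 libraries, 2 of 26 or 7.69%, in a test that called 7.39% of all 13704 tested genes lower. The count is therefore near the background of the comparison and says nothing particular about the set. No member was higher by edgeR, DESeq2 or limma-voom (0 at an unadjusted edgeR p under 0.05), where 7.52%, 12.2% and 7.91% of all tested genes were higher, in that order of tools. At an unadjusted edgeR p under 0.05, 4 of 26 members were lower, where 18.1% of all tested genes were lower and 15.8% higher. DESeq2 called 3 members lower (13.8% of all genes) and limma-voom 2 (7.28%). The median log2 fold change of the tested members was -0.23, against -0.016 over all tested genes. The 3A libraries lay wholly below the Control libraries for the 2 called members among those tested, and for 17.6% of all tested genes.

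**Figure D2:**
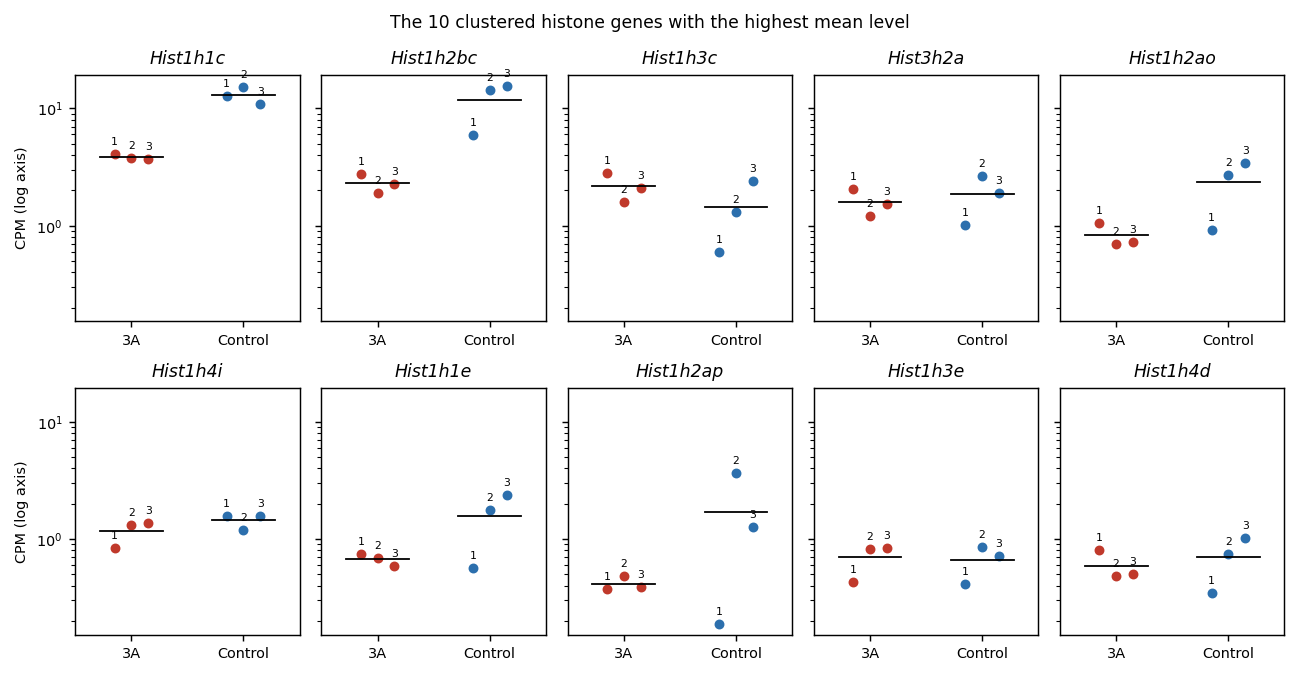
Level in CPM (log axis) of the 10 members with the highest mean, in each 3A library (red, left) and each Control library (blue, right); digits are the library numbers and lines the group means. Hist1h1c and Hist1h2bc are the panels in which the groups do not overlap, and Control 1 is the lowest Control library in 8 of the 10.

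The other H1 genes tested were Hist1h1d and Hist1h1e, which encode H1.3 and H1.4. Hist1h1e had 0.745, 0.693 and 0.585 CPM in 3A 1, 2 and 3, against 0.571, 1.78 and 2.38 CPM in Control 1, 2 and 3. Control 2 and Control 3 were high and Control 1 was below all 3A libraries, so the groups overlapped (log2 fold change -1.21, 95% interval -2.41 to -0.01, edgeR adjusted p = 0.144). Part of its exon is shared with Hist1h2be on the same strand, so reads there are uncertain. Hist1h1d had a log2 fold change of -0.41 (95% interval -1.51 to 0.70). Hist1h1c held 415 of the 562 H1 counts in 3A and 1107 of the 1314 in Control.

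Among H2A genes, 0 of 9 tested members were called (7 had a negative log2 fold change, and the unadjusted edgeR p was under 0.05 for Hist1h2ao). Hist1h2ao had 1.06, 0.693 and 0.724 CPM in 3A 1, 2 and 3, against 0.919, 2.70 and 3.40 CPM in Control 1, 2 and 3. The log2 fold change was -1.49 (95% interval -2.66 to -0.32); the adjusted p was 0.0857 by edgeR and 0.0266 by DESeq2. Hist1h2ap had 0.373, 0.480 and 0.390 CPM in 3A, against 0.190, 3.66 and 1.27 CPM in Control, with Control 2 far above all other libraries. Its log2 fold change was -2.03 (95% interval -4.09 to 0.03, edgeR adjusted p = 0.151). In both genes Control 1 lay within or below the 3A range. Both shared over 90% of their stretches of 50 bases with other genes (93.5% and 93.1%), so reads may be divided between genes.

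Hist3h2a, the one well-measured member outside the Hist1 cluster, showed no call. It had 2.06, 1.20 and 1.53 CPM in 3A 1, 2 and 3 and 1.01, 2.67 and 1.91 CPM in Control 1, 2 and 3 (log2 fold change -0.22, 95% interval -1.18 to 0.74). The lowest and the highest of the 6 values were both Control libraries. Its exon overlaps Trim17 on the same strand and Gm44313 on the other. Hist1h2an and Hist1h2ae had log2 fold changes of -0.91 and -0.79, at means of 0.196 and 0.243 CPM in 3A and 0.370 and 0.422 CPM in Control, and were not called.

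Of the 5 tested H2B genes Hist1h2bc was the one called. The other 4 had positive log2 fold changes that did not pass, the largest that of Hist1h2bk. It had 0.487, 0.720 and 0.362 CPM in 3A, against 0.190, 0.273 and 0.467 CPM in Control (log2 fold change 0.78, 95% interval -0.31 to 1.87). Hist1h2bc held 249 of 541 H2B counts in 3A (46%) and 971 of 1164 in Control (83.4%).

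H2A and H2B genes often stand back to back, and 12 such pairs with starts at most 500 bases apart were found among the members. Both genes were tested in 2 pairs, 1 gene in 6 and neither in 4. Hist1h2bc starts 250 bases from Hist1h2ac, which had 8 counts over the 3A libraries and 27 over the Control libraries. Hist1h2bc itself had 249 and 971, so the pair was uneven in both groups. In the pair of Hist1h2ag and Hist1h2bj, 269 bases apart, the counts were 30 and 57 in 3A and 38 and 38 in Control.

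None of the 3 tested H3 genes and none of the 6 tested H4 genes was called, and none had an unadjusted edgeR p under 0.05 (DESeq2 called 0). Hist1h3c, the H3 gene with most counts, had 2.84, 1.60 and 2.12 CPM in 3A 1, 2 and 3, against 0.602, 1.30 and 2.42 CPM in Control 1, 2 and 3. Control 3 lay within the 3A range, and the log2 fold change of 0.61 had a 95% interval of -0.56 to 1.79. Hist1h3e had means of 0.697 ± 0.232 CPM in 3A and 0.663 ± 0.227 CPM in Control (SD, n = 3 each). Its log2 fold change of 0.08 turned to between -0.17 and -0.05 without 3A 2, 3A 3 or Control 1.

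Hist1h4i was the H4 gene with the highest level. It had 0.831, 1.31 and 1.36 CPM in 3A 1, 2 and 3, against 1.59, 1.20 and 1.57 CPM in Control 1, 2 and 3 (log2 fold change -0.31, 95% interval -1.03 to 0.41). Hist1h4d had means of 0.594 ± 0.180 CPM in 3A and 0.707 ± 0.337 CPM in Control (SD, n = 3 each; log2 fold change -0.23). The log2 fold changes of the 6 H4 genes ran from -0.50 to 0.40. Over the 24 tested members that were not called, the 95% interval of the log2 fold change had a median width of 2.34, so differences of about 2-fold were within the error for most of them.

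**Figure D3:**
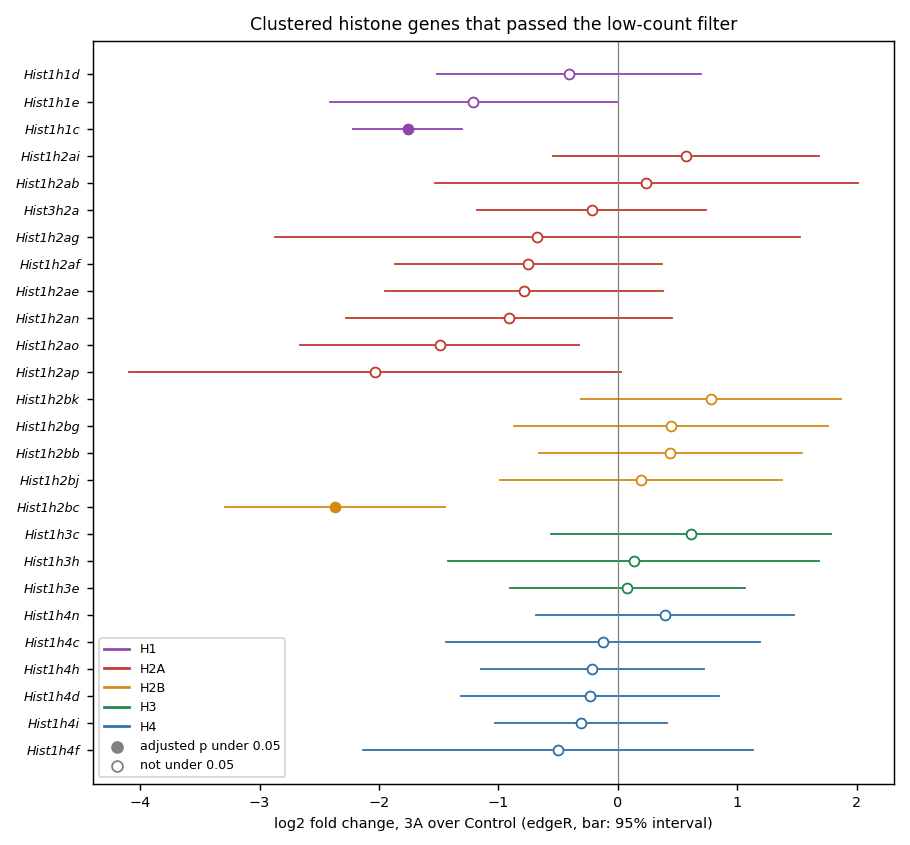
Log2 fold change of 3A over Control with its 95% interval for the 26 members that passed the low-count filter, coloured by histone class; filled points have an edgeR adjusted p under 0.05. The 2 filled points are Hist1h1c at -1.76 and Hist1h2bc at -2.37.

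Per kb of annotated exon, the highest member was Hist1h2bc, with 2.00 CPM per kb in 3A and 10.3 CPM per kb in Control. Hist1h1c followed with 2.46 CPM per kb in 3A and 8.32 CPM per kb in Control. Within 3A, Hist1h3c was higher than both at 3.47 CPM per kb (2.29 in Control). These orders depend on annotated length, since a read from a short, stem-loop-ended form is divided by the length of the long one.

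Summed over all members, the level was 25.4, 22.0 and 22.7 CPM in 3A 1, 2 and 3, against 30.1, 58.5 and 54.0 CPM in Control 1, 2 and 3. The sum averaged 23.4 ± 1.81 CPM in 3A and 47.5 ± 15.3 CPM in Control (SD, n = 3 each), a ratio of 0.491. Control 1 lay close to the 3A libraries. Hist1h1c and Hist1h2bc held 42.5% of all counts of the members, and without them the sum was 18.5, 16.3 and 16.8 CPM in 3A, against 11.4, 29.0 and 27.6 CPM in Control. Control 1 was then the lowest of the 6 libraries and the groups overlapped. Summed per kb of exon, the groups also overlapped, with 33.2, 29.6 and 30.2 in 3A and 29.6, 67.2 and 63.0 CPM per kb in Control. No test was made of these sums.

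By class, the summed level of H1 was 5.19 ± 0.295 CPM in 3A and 15.5 ± 2.51 CPM in Control, and that of H2B was 4.99 ± 0.11 CPM in 3A and 14.3 ± 5.88 CPM in Control (SD, n = 3 each). In these classes the groups did not overlap, but each sum leaned on its 1 called gene. Hist1h1c held 73.8% of H1 counts in 3A and 84.2% in Control. Hist1h2bc held 46% of H2B counts in 3A and 83.4% in Control. Hist1h1d and Hist1h1e had negative log2 fold changes that were not called, and the other 4 tested H2B genes had positive ones. The separation therefore does not describe the other genes of these classes. The sums of H2A (5.21 ± 1.00 CPM in 3A, 9.41 ± 5.38 CPM in Control), H3 (4.03 ± 0.441 CPM in 3A, 3.47 ± 1.68 CPM in Control) and H4 (3.92 ± 0.305 CPM in 3A, 4.90 ± 1.58 CPM in Control) overlapped between groups. In H2A, H3 and H4 the lowest of the 6 libraries was Control 1 and the highest was Control 2 or Control 3.

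**Figure D4:**
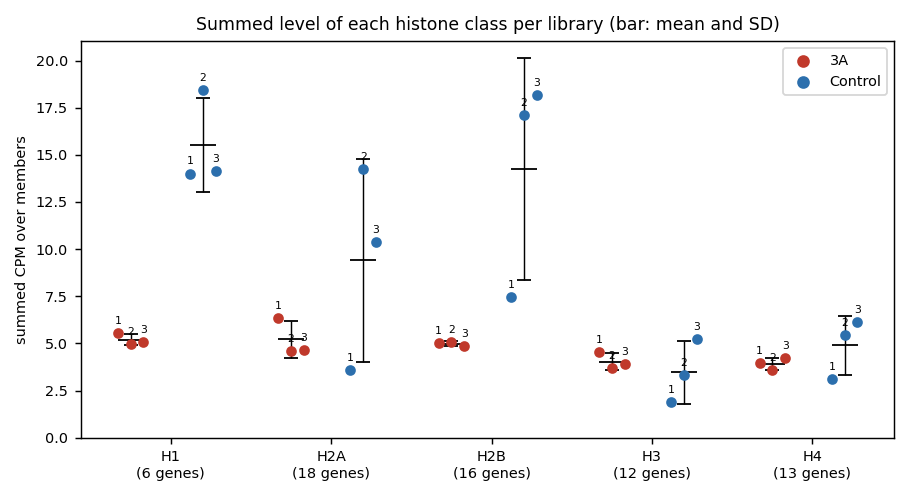
Summed CPM of the members of each histone class in every library, with 3A (red) left of Control (blue), library numbers beside the points and bars for the mean and SD. The H1 and H2B sums of all 3A libraries lie below all Control libraries, with Hist1h1c and Hist1h2bc holding most of their Control counts. For H2A, H3 and H4 Control 1 is the lowest library.

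Control 1 stood apart from the other Control libraries across all genes, with r = 0.957 and 0.953 against 0.988 between Control 2 and Control 3 (correlations across genes, not across independent samples). With Control 1 left out, edgeR called 25.8% of all tested genes lower and 26.2% higher. It then called 6 of 29 tested members lower and 0 higher: Hist1h1c, Hist1h2bc, Hist1h1e, Hist1h2ao, Hist1h2ap and Hist2h4. Leaving out 3A 1, Control 2 or Control 3 gave 2 members lower, where 4.64%, 3.06% and 3.46% of all tested genes were lower, and leaving out 3A 2 or 3A 3 gave 1, where 2.26% and 2.27% were. With 6 libraries, Itga3, the gene altered in these lines, had 2807, 2633 and 2064 counts in 3A and 1007, 1220 and 1062 in Control, and since reads of the human transgene may be among them, it checks neither the deletion nor the transgene.

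RNAs that carry no poly(A) tail were read as a measure of library content, since the labels do not state how RNA was selected. Of 15 such genes with a row, 6 passed the filter. By edgeR 0 were called, where 7.52% of all tested genes were higher and 7.39% lower. At an unadjusted edgeR p under 0.05, 0 were higher and 2 lower, where 15.8% and 18.1% of all tested genes were. DESeq2 called 0 higher and 1 lower, where 12.2% and 13.8% of all tested genes were. The log2 fold change was negative in all 6, with a median of -0.95. Rnu7, Rnu11 and Rnu12 were at 0 in all libraries. Gm42418, which covers ribosomal RNA sequence, had 1877, 1824 and 4186 CPM in 3A 1, 2 and 3, against 2665, 8191 and 5806 CPM in Control 1, 2 and 3. Malat1, a nuclear RNA, had 78.7, 45.2 and 39.3 CPM in 3A, against 38.3, 235.5 and 342.5 CPM in Control. Rmrp, the RNA of an endonuclease that processes ribosomal RNA precursors, had 3.58, 2.08 and 9.33 CPM in 3A and 4.18, 13.3 and 4.92 CPM in Control. Control 2 lay above all 3A libraries for all 6 tested RNAs (Gm42418, Gm26917, Malat1, Rn7sk, Rmrp and Rpph1), and Control 3 for 4 of them, not for Rn7sk or Rmrp. Among tested members, Hist1h1c, Hist1h2bc, Hist1h1e, Hist1h2ao, Hist1h2ap, Hist1h2an, Hist1h2af and Hist1h2ae were also above all 3A libraries in Control 2 and Control 3. The other tested members, Hist1h3c and Hist1h4i among them, were not above them in both. How many of all tested genes lay above all 3A libraries in Control 2 or Control 3 was not counted. Without Control 1, edgeR called 26.2% of all tested genes higher in 3A and 25.8% lower. The part of the RNAs without a poly(A) tail in the values of the histone genes, called or not, was not tested.

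The cells expressed keratinocyte markers, with all 8 listed genes tested. Their summed level was 6083 to 7972 CPM in 3A and 8367 to 10130 CPM in Control. Of the 8, 2 were called lower by edgeR, Krt15 and Trp63, where 7.39% of all tested genes were lower. At an unadjusted edgeR p under 0.05, 4 were lower and 0 higher, where 18.1% and 15.8% of all tested genes were. DESeq2 called 3 lower, where 13.8% of all tested genes were. The log2 fold change was negative in 6 and positive in 2, with a median of -0.57. The 8 fibroblast markers summed to 2.05 to 3.40 CPM in 3A and 2.38 to 3.36 CPM in Control, with Lum at 0 in all libraries. The 4 endothelial markers summed to 0.418 to 0.946 CPM in 3A and 0.412 to 0.467 CPM in Control. The 4 immune markers summed to 9.83 to 12.4 CPM in 3A and 11.7 to 20.1 CPM in Control, nearly all of it from Cd68, a lysosomal protein of macrophages that was not called; Ptprc and Cd3e stayed at or below 0.0557 CPM and Adgre1 was at 0. The part of these markers in the histone values was not tested. The melanocyte genes Dct and Tyr were at 0. Pmel, also on the melanocyte list, was called lower, at 0.602 to 0.752 CPM in 3A and 1.27 to 1.57 CPM in Control. The Pmel call was lost with library size as the only scaling, with no low-count filter and with the replicate number as a block. It was also lost when any library but Control 1 was left out. In all these settings 1 keratinocyte marker in place of 2 was called lower, where 1.07% to 5.92% of all tested genes were lower.

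Most histone reads in these libraries came from genes outside the clusters: 11 replacement and variant histone genes summed to 3668 to 4203 CPM in 3A and 3115 to 4002 CPM in Control. Of these 10 were tested, 1 was higher and 1 lower. This and the list counts that follow stand against 7.52% of all tested genes higher and 7.39% lower by edgeR, 12.2% and 13.8% by DESeq2, 15.8% and 18.1% at an unadjusted edgeR p under 0.05, and 26.2% and 25.8% without Control 1. H2afy2, which encodes the macroH2A2 variant found on silent chromatin, had 0.745, 0.293 and 0.334 CPM in 3A 1, 2 and 3, against 13.2, 18.1 and 20.9 CPM in Control 1, 2 and 3. Each 3A library was far below each Control library (-5.24 on the log2 scale, SE 0.40, adjusted p = 0.000577 by edgeR). H2afz, which encodes H2A.Z, had 728, 778 and 767 CPM in 3A, against 494, 384 and 320 CPM in Control (0.92 on the log2 scale, SE 0.19, adjusted p = 0.0212 by edgeR), with no overlap.

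The H3.3 genes did not pass. H3f3b had 1920, 1653 and 1709 CPM in 3A and 1480, 1914 and 2012 CPM in Control (log2 fold change -0.03, 95% interval -0.46 to 0.39), and H3f3a had a log2 fold change of 0.06. The replacement linker histone gene H1f0 had 798, 727 and 626 CPM in 3A and 580.3, 702 and 741 CPM in Control (log2 fold change 0.09, edgeR adjusted p = 0.735). Per kb of exon, H3f3b alone averaged 592 CPM per kb in 3A and 605.5 CPM per kb in Control, against at most 67.2 CPM per kb for all 65 clustered members together in any library. Without Control 1, 1 variant gene was called higher and 5 lower. When another library was left out, 0 were called higher and 1 to 2 lower.

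**Figure D5:**
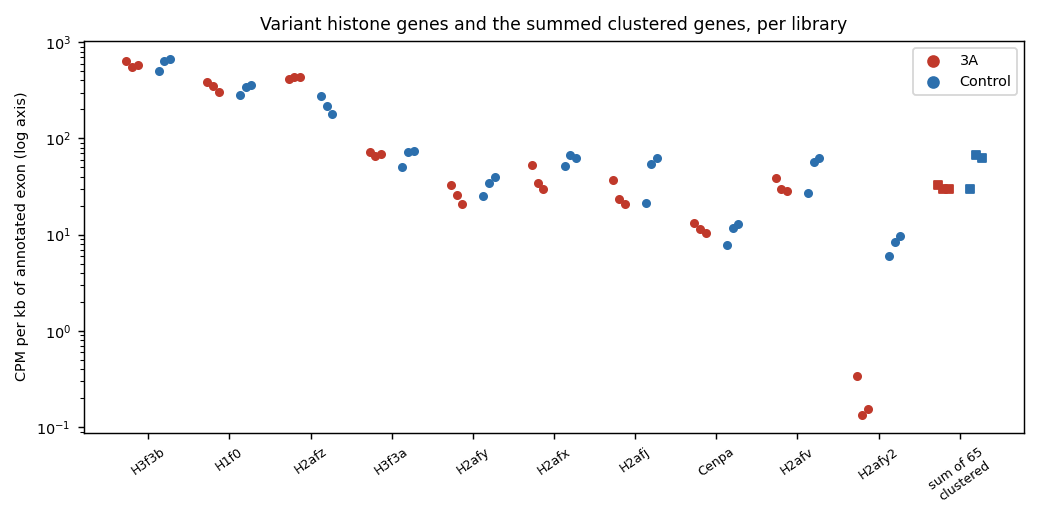
Level in CPM per kb of annotated exon (log axis) of the 10 tested replacement and variant histone genes, and of the 65 clustered members summed (squares), with each 3A library (red) left of each Control library (blue). H2afy2 is lower and H2afz higher in every 3A library, and the clustered genes together lie far below H3f3b in every library.

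Genes that act on histone mRNA ends were examined beside the members, since the series' title names CSTF3, a subunit of the cleavage stimulation factor. Of 18 tested genes for histone mRNA 3′ end formation and transcription, 2 were higher and 0 lower (7 and 2 at an unadjusted edgeR p under 0.05; 6 and 1 by DESeq2). The 2 were Cstf3 and Srrt, which encodes the cap-binding partner ARS2. Srrt had 83.7, 86.6 and 72.5 CPM in 3A 1, 2 and 3, against 56.7, 51.1 and 52.7 CPM in Control 1, 2 and 3 (0.60 on the log2 scale, SE 0.14, adjusted p = 0.0331 by edgeR). Cstf3 had 47.3, 57.6 and 61.1 CPM in 3A, against 38.5, 22.0 and 21.5 CPM in Control (log2 fold change 1.01, edgeR adjusted p = 0.0420). Neither call, and no other of this list, was made when any library but Control 1 was left out; without Control 1, 7 were higher and 5 lower.

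Slbp, the gene of the stem-loop binding protein, had 70.0, 52.6 and 55.0 CPM in 3A 1, 2 and 3, against 38.7, 71.7 and 77.7 CPM in Control 1, 2 and 3. The groups overlapped, with a log2 fold change of -0.08 (95% interval -0.73 to 0.57). Npat, which encodes the activator of histone gene transcription, had 25.7, 50.3 and 53.9 CPM in 3A and 56.9, 28.6 and 27.5 CPM in Control (log2 fold change 0.20, edgeR adjusted p = 0.726). In Npat Control 1 was the highest of the 6 libraries and 3A 1 the lowest. Of 8 genes for histone mRNA decay, 0 were called in either direction (0 higher and 1 lower at an unadjusted edgeR p under 0.05; 0 and 0 by DESeq2).

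Of 21 histone chaperone genes, Nap1l4, which encodes a carrier of H2A and H2B, was higher and 0 were lower (2 and 1 at an unadjusted edgeR p under 0.05; 2 and 1 by DESeq2). It had 197, 203 and 213 CPM in 3A, against 139.9, 98.5 and 89.8 CPM in Control (0.90 on the log2 scale, SE 0.20, adjusted p = 0.0245 by edgeR). Of 30 S phase genes, 2 were higher and 0 lower (7 and 0 at an unadjusted edgeR p under 0.05; 5 and 0 by DESeq2), with a median log2 fold change of 0.27. Over all tested genes 7.52% were higher by edgeR, so the 2 of 30 are near the background. Both encode subunits of ribonucleotide reductase. Rrm2 had 346, 376 and 340 CPM in 3A, against 191, 173 and 169 CPM in Control (1.00 on the log2 scale, SE 0.14, adjusted p = 0.00475 by edgeR), and Rrm1 had a log2 fold change of 0.62 (edgeR adjusted p = 0.0441). Without Control 1, 7 chaperone genes were higher and 3 lower, and 14 S phase genes were higher and 2 lower, where 26.2% of all tested genes were higher and 25.8% lower. When another library was left out, no chaperone gene was called and 1 S phase gene was called higher.

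Short motifs known from histone promoters were counted in the members by class. In RefSeq's promoter table (GRCm38.p6; 250 bases before to 50 after the start) 59 members had an entry, Hist1h2bc not among them, and both strands were searched. The octamer ATTTGCAT was in 7 of 18 H2A and 5 of 14 H2B promoters, in 0 of the H1, H3 and H4 promoters, and in 1.74% of 32851 promoters in all. AAACACA, the H1 box, was in 4 of 5 H1 promoters, Hist1h1c among them, in 2 of 18 H2A and 1 of 14 H2B promoters, in 0 of the H3 and H4 promoters, and in 7.18% of all promoters. CCAAT was in every H1, H2A, H2B and H3 promoter, in 3 of 12 H4 promoters and in 37.4% of all promoters. Genes of a back-to-back pair can share part of the searched stretch, so the same site may be counted for an H2A and an H2B promoter. A match is a description of the sequence, and the members called and not called were not compared on it.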

How the data were processed

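The authors deposited a table of raw counts for 6 libraries, keyed by Ensembl mouse gene and not scaled. The submitters' processing notes list featureCounts, Trim Galore, limma and edgeR, and as builds GRCh38, hg38 and mm10, with no versions given. The aligner, the strand setting and the handling of multiply mapped reads are not stated, and near-identical histone genes are sensitive to them. Total counts per library ranged from 25634204 to 36245240.

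Symbols, exons and transcripts came from GENCODE M21 (GRCm38), which matched 49056 IDs; the 259 others held at most 0.0123% of a library. Genes were tested with edgeR 4.0.16 under R 4.3.3 (quasi-likelihood test with group as the only term, TMM scaling, filterByExpr), with Benjamini-Hochberg adjustment over all 13704 genes that passed and a threshold of 0.05. CPM values use TMM-scaled library sizes. Intervals are 95%, from the same fit. Members, lists and tests were chosen with earlier results of these data known. Named members were those called, the 10 with the highest mean CPM, the 6 largest changes among tested members not called, and the testis genes; from each other list up to 4 called genes were named, plus Slbp, Npat, Cstf3, H2afz, H3f3a, H3f3b, H1f0 and Itga3. Values of Hist1h1d, Hist1h2af, Hist4h4, Hist2h4, the genes of divergent pairs and single library content or marker genes were added after they were seen. Alternatives were other scalings and filters, DESeq2 1.42.0, limma-voom (limma 3.58.1), the replicate number as a block and each library left out. The fit was tested on simulated counts. These held no outlying library and set changes only in genes with levels above those of most members, so they do not cover such members. No replicate pair agreed within sampling noise (chi-square per degree of freedom 10.3 to 199).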

Additional observations from a re-analysis of the deposited data

How the results depend on the processing

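Hist1h1c was called lower in each alternative and with each library left out. The number of members called lower was 2 with 6 libraries, where 7.39% of all tested genes were lower. With the replicate number as a block it was 1, where 1.07% of all tested genes were lower. It was 1 to 6 when a library was left out, the 6 without Control 1, where 25.8% were lower. No alternative called a member higher. With the replicate block Hist1h2bc had a log2 fold change of -2.28 and was not called (edgeR adjusted p = 0.0912). The labels do not say that the numbers pair the libraries. Deviations of same-numbered libraries from their group means correlated at -0.66, -0.419 and -0.375. With 3 libraries a group, and Control 1 apart from its group, these values cannot decide whether same-numbered libraries share a batch. The block lowered the calls over all genes to 288, in a fit with fewer degrees of freedom left. Over the 5 lists on variant histones, histone mRNA ends, decay, chaperones and S phase, 6 genes were higher and 1 lower. These became 14 and 3 by DESeq2, where 12.2% of all tested genes were higher and 13.8% lower. With the replicate block 0 were higher, where 1.04% of all tested genes were. With no low-count filter 3 were lower, where 4.22% of all tested genes were. When a library was left out, 1 to 31 were higher and 1 to 16 lower. The 31 and 16 were again without Control 1, where 26.2% and 25.8% of all tested genes were. The number of detected members was 56 at 1 count or more in any library and 6 at 1 CPM in 3 libraries. Left-out libraries moved the log2 fold change of Hist3h2a between -0.51 and 0.13, of Hist1h3e between -0.17 and 0.34 and of Hist1h4d between -0.56 and 0.11; the cause was not tested. The log2 ratio of the members' summed level was -1.03 with 6 libraries and ran between -1.26 and -0.86 over the scalings and left-out libraries. Most members had under 2 CPM, and the 39 that were not tested have no interval.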
